A study of Mus musculus with 9 samples.

Results

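The mouse mitochondrial genome carries 37 genes, and all 37 were listed among the 54146 genes measured by RNA-seq here. They were taken as the genes whose symbol begins with mt-, and comprise 13 mRNA genes, 2 rRNA genes and 22 tRNA genes. These genes were singled out because their difference between the genotypes was already known from these same mice. Their values by genotype are therefore a description, given with no p, and the calls counted for them by genotype come from the fit over all genes and support nothing.

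RNA was measured in 9 C57BL/6J mice at 15 wk of age. The tissue is labelled colonic mucosa, while the study's methods describe RNA from colonic crypts, the epithelial glands of the mucosa, and which of them was sequenced is not settled here. The 5 ApcMin/+ mice (2 females and 3 males) carry 1 mutant germline copy of Apc, a suppressor of Wnt signaling, which predisposes mice to intestinal polyps. The 4 ApcMin/+; p16cis/cis mice (3 females and 1 male), called p16cis/cis mice below, carry the same Apc mutation and, on both p16 alleles, an inserted cis-element that promotes DNA methylation of the p16 promoter. Both groups therefore share the Apc mutation, and mice with neither change were not analysed here. The Apc mutation and the inserted element are germline, so every cell type sampled carries them. Methylation of the p16 promoter is described in the study as age-dependent, and its extent in these samples is not given here. The sexes are unequally divided between the genotypes. Nothing in the labels ties mice to litters or extraction days.

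Mitochondrial DNA is transcribed from both strands as long precursors. The tRNAs punctuate these precursors, and their excision by RNase P and the RNase Z enzyme Elac2 frees the mRNAs and rRNAs, after which most mRNAs receive a short poly(A) tail. The 13 mRNAs encode subunits of respiratory complexes I, III and IV and of ATP synthase (complex V), and the rRNAs and tRNAs serve the mitochondrial ribosome that translates them. All other respiratory subunits, including the whole of complex II, are made from nuclear genes, as are the polymerase, the processing enzymes and the RNA-binding proteins that act on mitochondrial transcripts. The colonocyte, the main epithelial cell of the colon, is rich in mitochondria and oxidizes butyrate.

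Not every gene could be counted. A filter that asked for 4 or more mice with a normalized count of 10 or more was passed by 19 of the 37 genes, namely 7 mRNAs (mt-Nd1, mt-Nd2, mt-Co1, mt-Nd4, mt-Nd5, mt-Nd6 and mt-Cytb), both rRNAs and 10 tRNAs. A normalized count is a read number after scaling for the depth of its mouse. The other 6 mRNAs (mt-Co2, mt-Atp8, mt-Atp6, mt-Co3, mt-Nd3 and mt-Nd4l) gave next to no reads, although they encode subunits of the same complexes. Their normalized counts were at most 19.1 together with those of 5 tRNA genes that lie among them, mt-Ts1, mt-Td, mt-Tk, mt-Tg and mt-Tr. The lowest value of any counted mRNA in any mouse was 60983.

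These 11 genes are neighbors. In the GENCODE M21 annotation (GRCm38), they all lie within positions 6381 to 11042 of the mitochondrial genome (chrM). A stretch of 4663 bases on the minus strand of chromosome 1, chr1:24611535-24616197, carries 7 annotated pseudogenes in the same order, Gm28439, Gm10222, Gm28438, Gm28437, Gm10925, Gm28661 and Gm29216, with 99.7% to 100% identity to mt-Nd4, mt-Nd4l, mt-Nd3, mt-Co3, mt-Atp6, mt-Co2 and mt-Co1. The copies of mt-Co2, mt-Co3, mt-Atp6 and mt-Nd4l held 0 mismatches. For mt-Co1 and mt-Nd3, the aligned stretches differed from their copies at 1 base each, marked by capitals in the pairs that follow, which show how little separates a mitochondrial read from a nuclear one.
mt-Co1, chrM:6390-6423, plus strand: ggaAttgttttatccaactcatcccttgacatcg
Gm29216, chr1:24616155-24616188, minus strand: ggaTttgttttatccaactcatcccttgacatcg
mt-Nd3, chrM:9459-9491, plus strand: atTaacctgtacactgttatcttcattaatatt
Gm28438, chr1:24613087-24613119, minus strand: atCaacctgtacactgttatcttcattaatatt
The substitutions are A1066T and T3C, counted from 1 at the first base of mt-Co1 and of mt-Nd3.

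Of all 50-base windows of mt-Co2, 100% were found unchanged in a nuclear copy, against 99.9% for mt-Co3, 99.5% for mt-Atp6, 98.8% for mt-Nd4l and 98.0% for mt-Nd3. The share was 51.1% for mt-Co1 and 62.2% for mt-Nd4, which lie partly in the copied stretch and were counted. It was 8.19% for mt-Nd2, 7.61% for mt-Nd5 and 0% for mt-Nd1, mt-Nd6 and mt-Cytb. For mt-Atp8 and the 5 tRNA genes inside the stretch, no copy is annotated as a transcript. The 11 genes inside held 94 reads over all 9 mice, of 23719368 reads on mitochondrial genes, and the 7 pseudogenes on chromosome 1 held 1449. How reads that match both places equally well were treated is not given in the sources used here, and its part in these low counts was not tested. The levels of the 6 mRNAs in either genotype are therefore not read from these data, and the values of mt-Co1 and mt-Nd4 may rest on part of their length. The same may hold to a lesser degree for mt-Nd2 and mt-Nd5. Outside the stretch, 8 genes, all for tRNAs, also had under 100 reads over all mice. In all, 9 of the 37 genes were listed at 0 in every mouse, and a count of 0 allows up to 3 reads in a mouse.

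The share of sequenced reads taken by mitochondrial mRNAs was higher in p16cis/cis mice. It was 14.3%, 9.28%, 7.79%, 11.0% and 13.3% of all reads on genes in ApcMin/+ replicates 1 to 5, and 18.6%, 28.4%, 21.9% and 24.1% in p16cis/cis replicates 1 to 4. The genotypes did not overlap, with means of 11.1% ± 2.72 (SD, n = 5) and 23.3% ± 4.11 (SD, n = 4), a ratio of 2.09. The libraries were selected on poly(A), and the part of this selection or of RNA quality in the mRNA share was not tested. Reads on all genes together were fewer in p16cis/cis mice, 13523500 to 14900228 against 15745098 to 17885918 in ApcMin/+ mice. Reads on nuclear genes were 9500077 to 12023645 against 13491566 to 16323355, so these numbers differ in depth as well as in share.

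The rRNA shares, in contrast, overlapped between the genotypes. The rRNAs took 1.33%, 0.882%, 0.930%, 0.344% and 0.948% of reads in ApcMin/+ mice and 0.696%, 1.33%, 0.545% and 0.932% in p16cis/cis mice. The means were 0.886% ± 0.351 (SD, n = 5) and 0.875% ± 0.341 (SD, n = 4). The libraries were depleted of rRNA and selected on poly(A), so this share measures what escaped both steps rather than the rRNA content of the tissue. The tRNA genes took 0.0116% to 0.0225% of reads in ApcMin/+ mice and 0.0145% to 0.0224% in p16cis/cis mice, and these too overlapped.

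**Figure D1:**
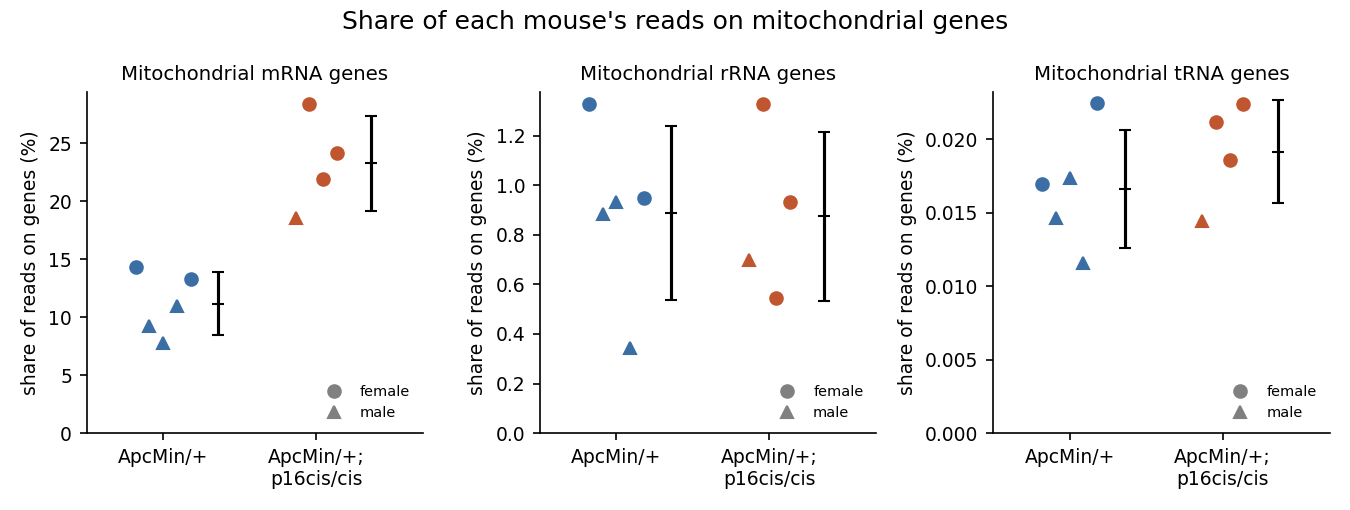
Share of each mouse's reads on genes (%, linear axes from 0) for mitochondrial mRNA, rRNA and tRNA genes in 5 ApcMin/+ and 4 p16cis/cis mice. Each symbol is 1 mouse, a circle for a female and a triangle for a male, and the black bar is the mean ± SD. The mRNA shares of the genotypes do not overlap (at most 14.3% against at least 18.6%), whereas the rRNA and tRNA shares do.

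Among the mRNAs, mt-Co1, the catalytic subunit of complex IV, held the most reads. Its normalized counts were 943699, 610734, 555692, 848487 and 942648 in ApcMin/+ mice and 1289307, 2261436, 1660974 and 1926120 in p16cis/cis mice. Every p16cis/cis mouse was above every ApcMin/+ mouse, with a fitted fold of 2.29 (log2 fold change 1.20, SE 0.58). All fold changes are on the log2(normalized count + 1) scale and give p16cis/cis over ApcMin/+.

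The widest difference among the mRNAs was that of mt-Cytb, the only subunit of complex III made in mitochondria. Its normalized counts were 576572, 307707, 254637, 486582 and 491722 in ApcMin/+ mice and 856664, 1480295, 1203120 and 1239133 in p16cis/cis mice. The groups did not overlap, and the fold was 2.90 (log2 fold change 1.54, SE 0.49).

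The complex I subunits differed by similar amounts. For mt-Nd1, which contributes to the membrane arm near the quinone site, the normalized counts were 383238, 236308, 217941, 334692 and 345789 in ApcMin/+ mice and 499979, 770308, 673887 and 727524 in p16cis/cis mice, without overlap (log2 fold change 1.15, SE 0.39). The counts of mt-Nd2 ranged from 72591 to 185526 in ApcMin/+ mice and from 196071 to 382028 in p16cis/cis mice (log2 fold change 1.36, SE 0.33). The log2 fold change was 1.29 (SE 0.35) for mt-Nd4 and 1.33 (SE 0.37) for mt-Nd5. The products of mt-Nd2, mt-Nd4 and mt-Nd5 form the proton-pumping part of the complex, and none of these 3 genes overlapped between genotypes.

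Among the counted mRNAs, mt-Nd6 is alone in being encoded on the other strand. Its counts were 140723, 67985, 60983, 91905 and 82122 in ApcMin/+ mice and 129463, 239685, 187305 and 173289 in p16cis/cis mice. The groups overlapped by 1 mouse, since ApcMin/+ replicate 1 lay above p16cis/cis replicate 1, and the log2 fold change was the smallest of the 7 mRNAs (1.07, SE 0.30). Whether reads were counted by strand is not given in the sources used here, so reads of mt-Nd6 and of RNA opposite to it cannot be told apart, and it overlaps mt-Nd5 by 14 bases.

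The 7 mRNAs ranked the mice at their extremes alike. In all 7, p16cis/cis replicate 2 was highest and p16cis/cis replicate 1, the male, was lowest of its group, while ApcMin/+ replicate 1 was highest and ApcMin/+ replicate 3 lowest of theirs. Per kb of gene length, mean normalized counts in ApcMin/+ mice were 505017 for mt-Co1, 370143 for mt-Cytb, 317235 for mt-Nd1, 170990 for mt-Nd6, 113038 for mt-Nd2, 106483 for mt-Nd4 and 99378 for mt-Nd5. The last 3 of these levels lay within 1 SD of each other (SD 32743 to 40750, n = 5), and the order of the 7 means was the same in p16cis/cis mice. The full gene length was used throughout, although mt-Co1 and mt-Nd4 above all may be counted over only part of it. Their per-kb levels, and their places in this order, are therefore uncertain.

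For the rRNAs, the levels varied more within a genotype than between them. The normalized counts of mt-Rnr1, the 12S rRNA of the small subunit, were 63791, 42253, 45478, 27552 and 51021 in ApcMin/+ mice and 44769, 91159, 40082 and 76459 in p16cis/cis mice (log2 fold change 0.42, SE 0.30). Those of mt-Rnr2, the 16S rRNA of the large subunit, were 185381, 107013, 116848, 41472 and 118445, and 86242, 195000, 78994 and 126875 (log2 fold change 0.15, SE 0.41). In both, ApcMin/+ replicate 4 was the lowest of all mice. Without this mouse the log2 fold change of mt-Rnr2 was -0.18, and it was -0.25 in females only, so it has no settled direction.

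**Figure D2:**
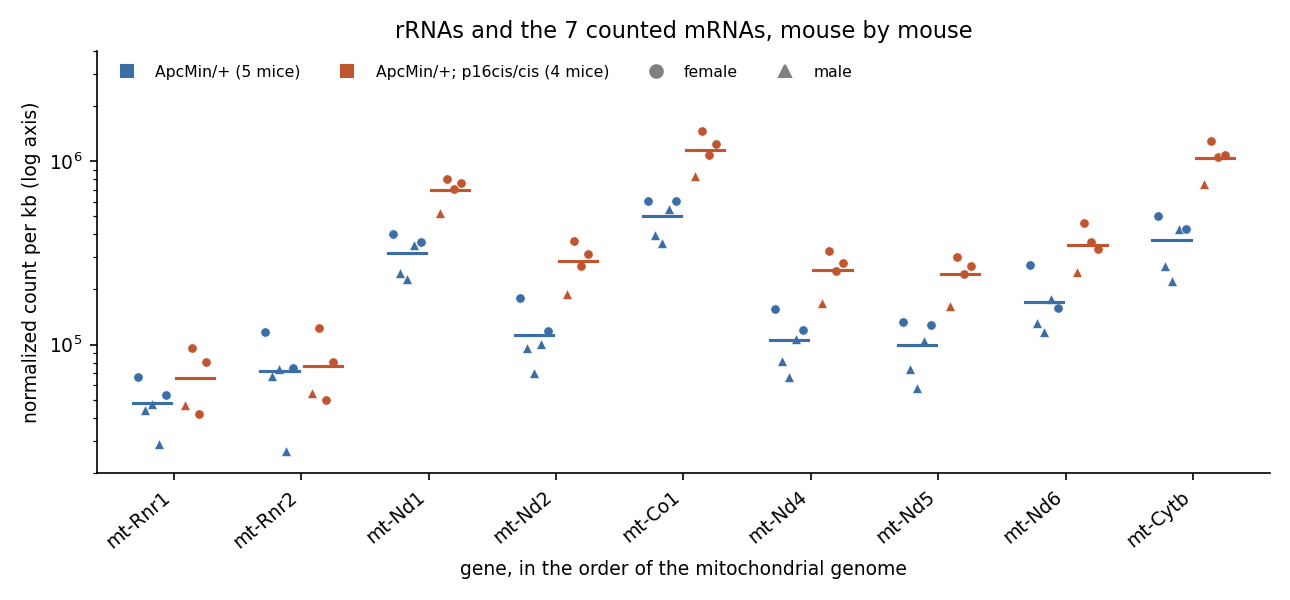
Normalized count per kb of gene length (log axis) for the 2 rRNAs and 7 mRNAs that were counted, in the order of the mitochondrial genome. Each symbol is 1 mouse (circle, female; triangle, male) and each line a group mean. The p16cis/cis mice lie above all ApcMin/+ mice for each mRNA but mt-Nd6, where 1 mouse overlaps, and the groups overlap for both rRNAs. The full gene length was used, although mt-Co1 and mt-Nd4 may be counted over only part of it.

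Within the mitochondrial reads, the mix of classes therefore also differed. Its rRNA part is what escaped depletion and poly(A) selection, so it does not give the mix of transcripts in the tissue. The rRNAs made up 8.48%, 8.67%, 10.6%, 3.03% and 6.63% of mitochondrial reads in ApcMin/+ mice and 3.61%, 4.46%, 2.42% and 3.71% in p16cis/cis mice. Only ApcMin/+ replicate 4 fell in the p16cis/cis range. The difference of the means was -3.94 percentage points, and -5.05 without that mouse. The share of mt-Cytb was 16.7% to 21.4% of mitochondrial reads in ApcMin/+ mice and 22.6% to 24.5% in p16cis/cis mice, without overlap. The shares of the other 6 mRNAs overlapped. For mt-Co1 the means were 35.6% ± 2.08 (SD, n = 5) and 34.9% ± 0.776 (SD, n = 4).

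Of the 22 tRNA genes, 10 passed the filter, and reads on them were few. Most lay on mt-Tp (14410 reads over all mice), mt-Tl1 (4039) and mt-Tc (3106), and the other 7 held 87 to 1300 reads each. A tRNA is shorter than most RNA-seq fragments and carries no long poly(A) tail of its own, so a read on such a gene can come from a mature tRNA or from a longer RNA that spans it, and these cannot be told apart. The genes discussed next are given here as DNA of the coding sense, from the GENCODE M21 transcripts, with the anticodon in capitals, so that their place and size can be read beside their values.
mt-Tt (threonine), chrM:15289-15355, plus strand: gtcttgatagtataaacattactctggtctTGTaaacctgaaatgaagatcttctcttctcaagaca
mt-Te (glutamate), chrM:14071-14139, minus strand: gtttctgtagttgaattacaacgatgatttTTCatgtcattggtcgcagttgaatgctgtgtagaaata
mt-Ti (isoleucine), chrM:3706-3774, plus strand: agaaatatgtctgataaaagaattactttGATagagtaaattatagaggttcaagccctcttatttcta
mt-Tm (methionine), chrM:3845-3913, plus strand: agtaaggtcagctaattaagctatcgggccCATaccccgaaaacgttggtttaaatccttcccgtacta
mt-Tp (proline), chrM:15356-15422, minus strand: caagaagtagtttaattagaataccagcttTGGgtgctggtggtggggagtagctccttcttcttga
mt-Tl1 (leucine), chrM:2676-2750, plus strand: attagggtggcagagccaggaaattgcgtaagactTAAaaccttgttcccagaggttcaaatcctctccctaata

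The gene mt-Tt begins at the base after mt-Cytb ends, and mt-Tp follows it at once on the other strand. The normalized counts of mt-Tt were 11.2, 5.71, 3.90, 30.5 and 4.54 in ApcMin/+ mice and 51.8, 137.2, 120.2 and 106.5 in p16cis/cis mice. The groups did not overlap, and the fitted log2 fold change was 3.41 (SE 0.53), above that of any other mitochondrial gene tested. By contrast, mt-Tp had 1827, 1524, 1618, 1285 and 2632 normalized counts in ApcMin/+ mice and 1755, 2573, 2418 and 2458 in p16cis/cis mice, which overlapped (log2 fold change 0.40, SE 0.19). As a share of mitochondrial reads mt-Tp was lower in p16cis/cis mice, without overlap (0.0401% to 0.0492% against 0.0564% to 0.106%).

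The gene mt-Te lies between mt-Nd6 and mt-Cytb, 5 bases before mt-Cytb and on the strand of mt-Nd6. Its normalized counts were 17.9, 7.61, 27.3, 128.4 and 11.4 in ApcMin/+ mice and 64.4, 134.0, 141.3 and 122.2 in p16cis/cis mice (log2 fold change 2.24, SE 0.64). It overlapped between genotypes through ApcMin/+ replicate 4, which was far above the rest of its group, and without that mouse the groups did not overlap. The filter was met by all 4 p16cis/cis mice for mt-Tt but by only 2 ApcMin/+ mice, so that a difference was built into its selection.

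The gene mt-Ti overlaps the end of mt-Nd1 by 2 bases, and mt-Tm ends at the base before mt-Nd2. Normalized counts of mt-Ti were 22.3, 4.75, 11.7, 26.7 and 31.8 in ApcMin/+ mice and 35.4, 81.4, 60.1 and 59.5 in p16cis/cis mice (log2 fold change 1.74, SE 0.49). Those of mt-Tm were 51.3, 39.0, 28.3, 5.08 and 35.2, and 79.6, 130.8, 64.6 and 59.5 (log2 fold change 1.60, SE 0.54). Neither overlapped between genotypes.

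The gene mt-Tl1 lies between mt-Rnr2 and mt-Nd1 with no base on either side. Its normalized counts, 244.1 to 720.9 in ApcMin/+ mice and 357.4 to 789.5 in p16cis/cis mice, overlapped (log2 fold change 0.32, SE 0.30). The other 4 tRNA genes are on the minus strand and overlapped as well, with log2 fold changes of 0.60 for mt-Tq, 0.41 for mt-Tc, -0.12 for mt-Ta and -0.25 for mt-Tn. The nuclear gene Cep295 holds a stretch 93.5% identical to mt-Tl1 and one 91.5% identical to mt-Tn, so the origin of some reads on these 2 genes is uncertain.

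**Figure D3:**
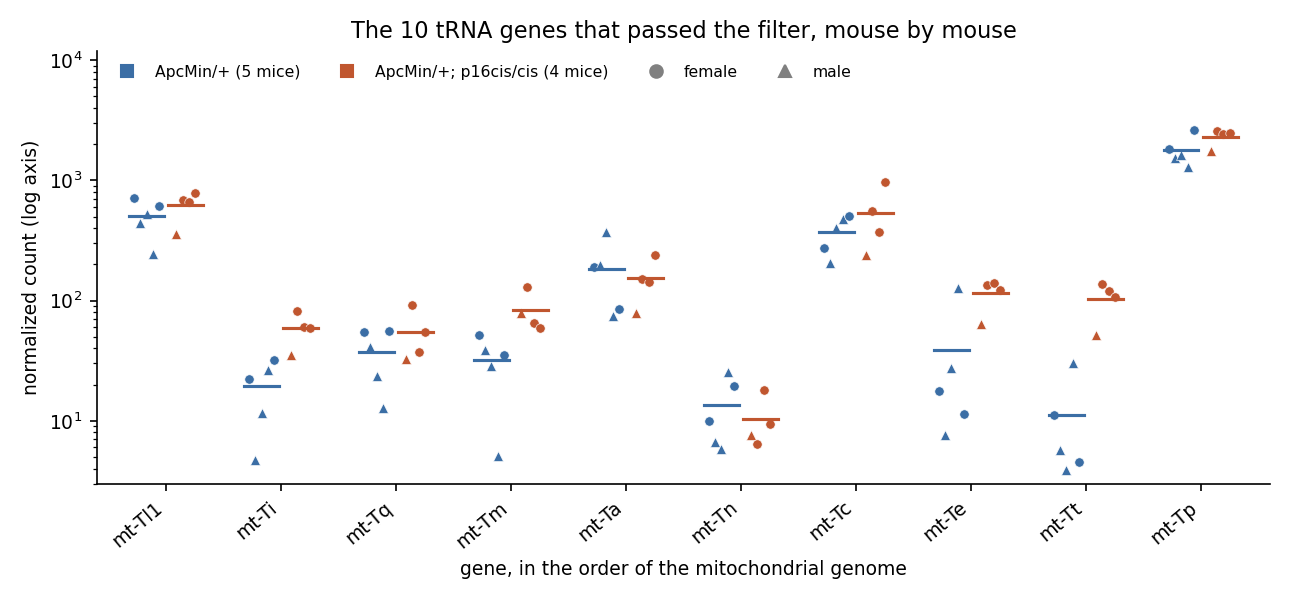
Normalized count (log axis) of the 10 mitochondrial tRNA genes that passed the filter, in the order of the mitochondrial genome, with 1 symbol per mouse (circle, female; triangle, male) and a line at each group mean. The p16cis/cis mice lie apart from and above the ApcMin/+ mice for mt-Ti, mt-Tm and mt-Tt, and the groups overlap for the others.

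Across all 14410 genes tested with limma, 1.83% passed an adjusted p under 0.05 with a fold over 2 in the higher direction and 1.64% in the lower. Among the 19 mitochondrial genes that passed the filter these counts were 8 and 0, and the 8 were mt-Nd2, mt-Nd4, mt-Nd5, mt-Nd6, mt-Cytb, mt-Ti, mt-Te and mt-Tt. No overlap between the genotypes in the higher direction was seen for 7.24% of all genes tested and for 9 of the 19, and in the lower direction for 8.95% and for 0. Because the genes were chosen with this contrast known, and mt-Tt met the filter largely through the group where it was high, nothing is read from these counts. The number of calls rested on single mice, being 1 without ApcMin/+ replicate 3 or p16cis/cis replicate 2 or 4, 3 without ApcMin/+ replicate 2, 4 without p16cis/cis replicate 3, 5 without ApcMin/+ replicate 5 and 10 without ApcMin/+ replicate 4, while the log2 fold changes of the 7 mRNAs stayed between 0.93 and 1.69 in all of these fits.

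**Figure D4:**
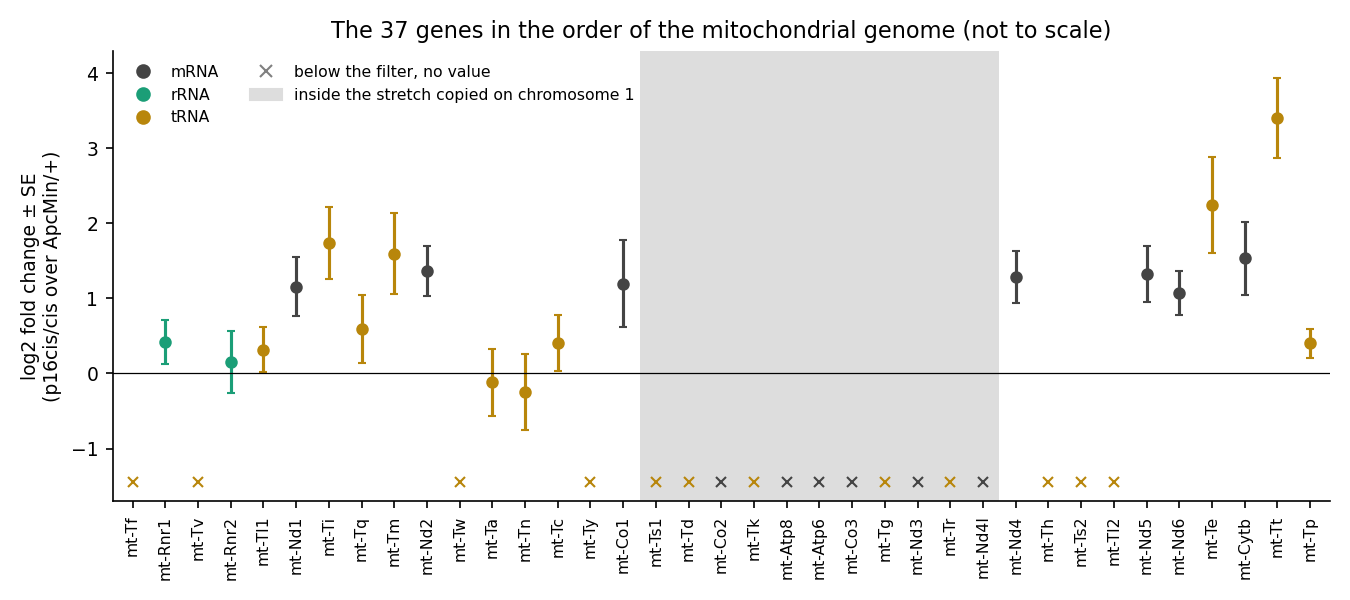
Log2 fold change ± SE (p16cis/cis over ApcMin/+) of the 37 mitochondrial genes in genome order, evenly spaced. Crosses at the bottom mark genes below the filter, which have no value, and the gray band marks the 11 genes inside the stretch copied on chromosome 1. The 7 mRNAs lie between 1.07 and 1.54, the rRNAs at 0.42 and 0.15, and the tRNAs between -0.25 and 3.41.

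Sex was a measure that the choice of the genes did not use. Males had lower mitochondrial mRNA shares than females in both genotypes. The 2 ApcMin/+ females were at 14.3% and 13.3% and the 3 ApcMin/+ males at 7.79% to 11.0%, while the 3 p16cis/cis females were at 21.9% to 28.4% and the only p16cis/cis male at 18.6%. The difference, fitted with genotype, was -5.14 percentage points (male minus female), with p = 0.05 in an exact two-sided permutation test of sex within genotype over 40 arrangements, where the smallest possible p is 0.025. Adjusted over the 3 classes it was 0.075 (exact permutation), as it was for the tRNA share, and the rRNA share gave p = 0.175 (exact permutation). Gene by gene, 18 of the 19 were lower in males, with a median log2 male over female of -0.59 (all genes, 0.0028). Of the 19, 7 had an unadjusted limma p under 0.05 (4.38% of all genes tested), but none passed after adjustment, where 0.0486% of all genes did. The mitochondrial genes are cut from shared precursors and the mRNAs ranked the extreme mice alike, so these are not 19 independent measures. The smallest adjusted limma p was 0.584, for mt-Tp (log2 male over female -0.55, SE 0.13), and edgeR called none either. DESeq2 called 3, mt-Nd2, mt-Nd4 and mt-Nd5, with log2 male over female of -0.75, -0.73 and -0.73, and 0.25% of all the genes it tested.

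Since the genotypes differ in sex make-up, they were also compared with sex taken into account. With sex as a covariate, the log2 fold changes by genotype were 1.10 for mt-Nd2, 1.03 for mt-Nd4, 1.01 for mt-Co1 and 1.31 for mt-Cytb, and in females alone (2 against 3 mice) they were 1.10, 1.05, 1.04 and 1.29. Of the 8 calls, mt-Nd2, mt-Nd4 and mt-Tt were made with sex as a covariate, and mt-Te and mt-Tt, with no mRNA, in females alone. In females the mRNA share was higher in p16cis/cis mice by 11.0 percentage points, against 12.1 in all mice.

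Nuclear genes for subunits of the same complexes were next compared by genotype, as a measure not used to choose the mitochondrial genes. These genes and the lists below were chosen with earlier results of these data known. They come from the same mice and the same contrast, so they are not independent of the mitochondrial values. Among 80 nuclear subunit genes tested, 13 rose and 5 fell at an adjusted p under 0.05, when 8.14% of all genes tested rose and 8.75% fell, and the median log2 fold change was 0.19 (all genes, -0.0041). In complex I, 7 of 36 rose and 1 fell. Those that rose most were Ndufb4 (log2 fold change 1.65, SE 0.35, limma adjusted p = 0.0112), Ndufa3 (0.95, SE 0.15, limma adjusted p = 0.00400) and Ndufb2 (0.88, SE 0.17, limma adjusted p = 0.00743), all accessory subunits. The one that fell was Ndufs1, the largest subunit of the electron-accepting arm (-0.68, SE 0.09, limma adjusted p = 0.00195).

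In complex II, which has no mitochondrially encoded part, Sdha, the flavoprotein that oxidizes succinate, fell (-0.44, limma adjusted p = 0.0185), and the other 3 genes did not pass. In complex III, 1 of 9 rose (Uqcrh, 0.46) and 1 fell (Uqcrc2, a core protein, -0.60), but Uqcrh passed in 10 of 23 alternatives and lost its call when any one of 7 mice was left out (limma adjusted p from 0.0556 to 0.0913). In complex IV, 1 of 14 rose (Cox6b2, 0.85) and 1 fell (Cox5a, -0.53). In complex V, 4 of 17 rose, led by Atp5g1, a gene for the membrane ring (1.42, limma adjusted p = 0.00260), Atp5e (0.67) and the ATPase inhibitor Atpif1 (0.63), and Atp5a1, the alpha subunit of the catalytic head, fell (-0.58).

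The 13 nuclear subunit genes that rose had a median transcript length of 971 bases, the 5 that fell one of 2661, and the other 62 one of 1025.5. With a correction for GC content and length, 9 rose and 8 fell (median 0.016, and -0.069 with the replicate block in addition). Scaled to the library total, 9 rose and 12 fell, with a median of -0.011, so the balance between them turned. The part of length in these calls was otherwise not tested. The number that rose was 23 with DESeq2, 29 in females only, 30 without ApcMin/+ replicate 4 and 21 without p16cis/cis replicate 1, but 6 without ApcMin/+ replicate 2 or p16cis/cis replicate 2 or 4, and 7 without ApcMin/+ replicate 1, 3 or 5 or p16cis/cis replicate 3. Ndufb4, Ndufa3, Ndufb2, Ndufs1 and Atp5g1 passed in all 23 alternatives. Relative to the summed nuclear subunits of the same complex, the 5 counted mitochondrial mRNAs of complex I were at 15.5, 8.37, 6.28, 7.90 and 15.0 times in ApcMin/+ mice and 16.7, 25.9, 18.5 and 21.2 times in p16cis/cis mice, and the groups did not overlap. The ratio was 4.74 to 12.9 and 18.2 to 26.8 for mt-Cytb and complex III, without overlap, and 6.47 to 17.6 and 17.1 to 25.8 for mt-Co1 and complex IV, where ApcMin/+ replicate 5 lay above p16cis/cis replicate 1. These ratios leave out mt-Nd3 and mt-Nd4l of complex I and mt-Co2 and mt-Co3 of complex IV, and they were not scaled for gene length. They contain the mitochondrial values whose genotype difference was already known, so they are a description and support nothing.

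**Figure D5:**
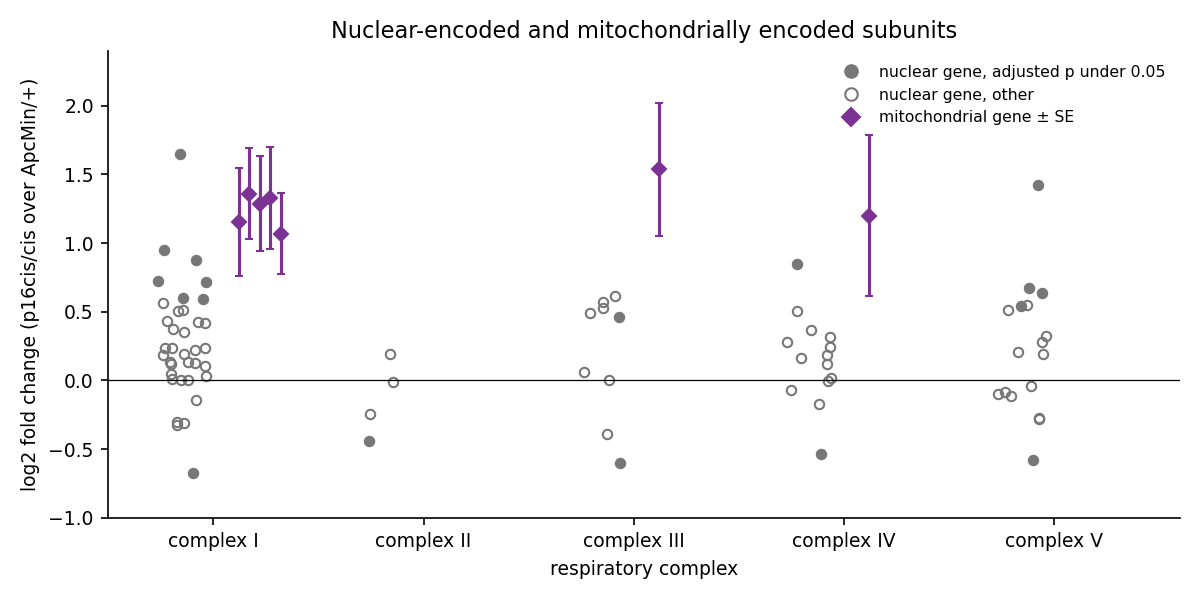
Log2 fold change (p16cis/cis over ApcMin/+) of nuclear-encoded subunits (circles, filled where the limma adjusted p is under 0.05) and mitochondrially encoded subunits (diamonds ± SE) of the 5 respiratory complexes. The mitochondrial genes lie between 1.07 and 1.54, and most of the 80 nuclear genes lie near their median of 0.19.

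The counts in the lists that follow are to be read against the same 8.14% and 8.75% of all genes. Among 24 genes of mitochondrial DNA transcription and replication, none rose and 1 fell, Tfam, which packages mitochondrial DNA and starts its transcription (from 867.2 ± 82.4, SD, n = 5, to 604.2 ± 48.5 normalized counts, SD, n = 4, log2 fold change -0.52, limma adjusted p = 0.00957). The RNA polymerase Polrmt (0.20, limma adjusted p = 0.240) and the transcription factor Tfb2m (-0.41, limma adjusted p = 0.102) did not pass. The median of the list was 0.02. Tfam lost its call in females only and with the replicate block and correction, and the fall of Lrpprc, described next, did so in females only.

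Of 34 genes for processing and decay of mitochondrial RNA, 1 rose and 1 fell (8.14% and 8.75% of all genes). Lrpprc, which binds and stabilizes mitochondrial mRNAs, fell from 1359 ± 147.5 (SD, n = 5) to 927.1 ± 141.6 (SD, n = 4) normalized counts (log2 fold change -0.56, limma adjusted p = 0.0124), and Rexo2, an exonuclease for short RNA, rose (0.44, limma adjusted p = 0.0184). The Lrpprc partner Slirp (0.23), the poly(A) polymerase Mtpap (-0.02), the RNA-degrading pair Pnpt1 (-0.30) and Supv3l1 (-0.02), and the tRNA-processing enzymes Elac2 (0.30) and Trmt10c (-0.29) did not pass, with limma adjusted p from 0.0597 (Elac2) to 0.924 (Supv3l1). Of 23 genes that charge mitochondrial tRNAs, 3 rose (Sars2, Gatc and Vars2, by 0.42 to 0.59) and 2 fell (Gars, -0.51, and Rars2, -0.48).

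Of 17 regulators of mitochondrial biogenesis, 4 fell and 1 rose, with a list median of -0.24, beside 8.75% falling and 8.14% rising of all genes. Those that fell were Ppargc1a, a coactivator of mitochondrial genes (-0.59, limma adjusted p = 0.0272), the energy-sensing kinase subunits Prkaa2 (-0.53) and Prkaa1 (-0.45), and Nfe2l2, a regulator of antioxidant genes (-0.48). Perm1 rose (1.27) from 19.1 to 46.6 mean normalized counts. Of 17 genes often taken as proxies of mitochondrial mass, 1 rose (Cycs, cytochrome c, 0.88) and 5 fell, among them the ADP/ATP carrier Slc25a5 (-0.95), Tomm70a (-0.49) and Vdac3 (-0.49). Cs, citrate synthase, had 15487 ± 3226 (SD, n = 5) and 14499 ± 1949 (SD, n = 4) normalized counts (-0.08, limma adjusted p = 0.758), and Tomm20 (0.04) and Vdac1 (-0.13) did not pass either.

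Of 98 markers of cell types and nuclear-retained RNAs tested, 5 rose and 9 fell, when 8.14% and 8.75% of all genes did. Of 10 markers of absorptive colonocytes, 2 fell, the chloride exchanger Slc26a3 (-1.23, limma adjusted p = 0.00848) and the sodium exchanger Slc9a3 (-1.54, limma adjusted p = 0.0207), and the summed level of the list was 190132 to 352841 in ApcMin/+ mice and 147582 to 173922 in p16cis/cis mice. Of 9 goblet cell markers 1 rose (Spink4, 1.41), of 10 crypt base and proliferation markers 1 rose (Mki67, 0.92), and none of 10 general epithelial markers passed, with sums of 271732 to 434529 and 281051 to 368087. Of 8 tested enteroendocrine and tuft cell markers 1 rose (Insl5) and 2 fell (Chga and Chgb). Of these 8, 6 had positive log2 fold changes, and the median was 0.41. Of 6 nuclear-retained RNAs, 1 fell, Malat1 (-2.68, limma adjusted p = 0.0408).

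Markers of other tissue were low beside these. In ApcMin/+ and p16cis/cis mice, respectively, their sums were 367.1 to 789.2 and 546.8 to 716.2 for smooth muscle (1 of 7 rose, Smtn, while the other 6 had negative log2 fold changes and the median was -0.96), 138.8 to 733.3 and 186.9 to 404.2 for fibroblasts and matrix (1 of 6 rose, Fn1, and 1 fell, Col3a1, with 5 negative and a median of -0.78), and 55.9 to 205.4 and 57.4 to 84.6 for endothelium (0 of 3). For immune cells they were 111.9 to 1595 and 358.6 to 626.6 for T cells (0 of 8), 4111 to 5203 and 3074 to 4173 for B and plasma cells (1 of 7 fell, Jchain), and 1069 to 1942 and 1545 to 1617 for myeloid cells (1 of 6 fell, Lyz2). Red blood cell markers summed to 1187 to 7269 and 352.3 to 4534 (1 of 5 fell, Alas2), and those of enteric neurons and glia to 40.9 to 67.4 and 58.1 to 84.6 (0 of 2). All 7 B and plasma cell markers had negative log2 fold changes (median -1.98), as did all 5 red blood cell markers (median -1.18). Skeletal and heart muscle, tissues rich in mitochondria, gave 107.4 to 243.3 and 177.0 to 327.0 (0 of 1), and the myosins Myh2 and Myh4 were listed at 0 in all mice. In RNA from many cells together, a different number of cells of a type and a different amount of RNA per cell cannot be told apart, and the part of cell make-up in the mitochondrial values was not tested.

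Nuclear copies held few reads in all. The 15 annotated pseudogene copies listed, which include the 7 on chromosome 1, held 8263 reads over all mice, 0.0348% of the reads on mitochondrial genes. The most were on Gm13340 on chromosome 2, 97.6% identical to mt-Co1, with mean normalized counts of 493.7 (SD 113.2) for ApcMin/+ and 686.2 (SD 161.0) for p16cis/cis mice, and on its neighbor Gm13341, 95.9% identical to mt-Co2, with means of 180.0 (SD 32.8) and 288.6 (SD 59.3). Adding the copies to the mitochondrial total left the difference between genotypes at 12.1 percentage points. This adds only reads that were counted on a copy, and does not show how reads matching both places were treated.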

How the data were processed

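RNA of 9 mice, labelled colonic mucosa, was sequenced by the authors on a BGISEQ-500 after rRNA depletion and oligo dT selection. Reads were aligned with BOWTIE2, quantified with RSEM and normalized with DESeq2. Versions, genome build, read length, counting strand and the treatment of reads with several matches are not given in the sources used here. The deposited values are DESeq2-normalized counts (a linear signal, reads divided by a size factor per mouse). Each column was a whole multiple of its smallest value for 100% of positive values (tolerance 0.01). This gave back whole numbers, called reads here, 13523500 to 17885918 on genes per mouse. Whether they are tallies of reads or rounded RSEM estimates is not given in the sources used here. Shares are of these reads, and their intervals would cover counting error only.

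Values of at least 10 in at least 4 mice (14410 genes) were fitted by genotype with limma 3.58.1 (R 4.3.3, trend) as log2(value + 1), with Benjamini-Hochberg adjustment over all genes. P-values measure the spread between these mice. Alternatives were edgeR 4.0.16 (quasi-likelihood) and DESeq2 1.42.0, both fitted to recovered reads, other scalings, filters, pseudocounts, sex, females only, GC and length correction, a replicate block and leaving out each mouse. The fit was tested on simulated data. No columns of other samples were left out. Gene identifiers matched GENCODE M21 for 54079 of 54146 genes, and near-identical transcripts (at least 90% identity over 80% of the shorter or 200 bases) were found with blastn 2.17.0. Named were all mitochondrial genes, the copies with most reads, up to 3 genes each way per pathway list among those past an adjusted p of 0.05, and 15 genes of mitochondrial expression and mass; marker genes are named for their list. The mitochondrial genes and all lists were chosen with earlier results of these data known. Genes of the lists with no row are not analysed here.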

Additional observations from a re-analysis of the deposited data

Results flagged for a closer look

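In ApcMin/+ replicate 4, mt-Te had a normalized count of 128.4, when the other 4 mice of its group had 7.61 to 27.3, and mt-Tt had 30.5, when the others had 3.90 to 11.2. In both, the gap to the next mouse was large for the range of the group by Dixon's criterion. The criterion was applied to 46 groups of values, in which chance alone gives about 2.3 such values, and 2 were found, both in the same mouse. This mouse also had the lowest rRNA share of all mice, 0.344%, and the lowest ratio of mt-Rnr2 to mt-Rnr1 reads, 1.51, against 2.32 to 2.91 in the other ApcMin/+ mice and 1.66 to 2.14 in p16cis/cis mice.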

How the results depend on the processing

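The mRNA class kept its direction in all 23 alternatives, with a median log2 fold change of 1.29 and values of 1.13 to 1.48 when 1 mouse was left out. The number of mitochondrial genes called higher, 8, was 4 with a value of at least 10 in every mouse (14 genes tested), 3 with sex as a covariate, 2 in females only, 4 with GC content and length correction and 1 to 10 when 1 mouse was left out, and the number called lower was 0 throughout. The replicate numbers did not pair the mice (correlations of same-numbered mice -0.18, 0.07, 0.05 and 0.14), and the replicate block gave 4 calls, or 1 with GC content and length correction. The median of the rRNAs, 0.29, was -0.024 in females only, and that of the tRNAs, 0.50, was -0.53 with GC content and length correction and -0.38 with the replicate block in addition, where the short lengths of tRNAs lie at the edge of the fitted range. The difference in rRNA share ran from -0.16 to 0.0987 percentage points when 1 mouse was left out, and was positive in 4 of these 9 fits. Genes of the nuclear pathway lists called higher and lower, 23 and 22, were 35 higher with DESeq2, 12 and 54 when scaled to the library total, which shifts the median of all genes to -0.18, 5 lower in females only, 12 and 10 with the replicate block and correction, and 10 to 46 and 14 to 28 when 1 mouse was left out. Of the 45 pathway genes called, 0 changed sign in any alternative, 20 stayed past the threshold whichever mouse was left out, and among the rest Ppargc1a had an adjusted limma p of 0.0586 to 0.0835 in 4 such fits, Sdha 0.0518 to 0.0605 in 3 and Perm1 0.0593 to 0.0948 in 4. The rest also held Optn, which passed in 12 of 23 alternatives, Atp5a1, Atp5e and Cycs, in 15 each, and Cox5a, in 17. DESeq2 called 3 mitochondrial genes by sex where limma called 0. The sex difference in mRNA share ran from -5.69 to -4.46 points when 1 mouse was left out, with exact permutation p from 0.0333 to 0.125. The causes of these changes were not tested. With 5 and 4 mice, 1 male among the p16cis/cis mice and under 500 reads on 6 of the 10 tRNA genes, tRNA values have the least precision.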

Other observations

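Of 16 genes of mitophagy, 1 rose in p16cis/cis mice (Ulk1, a kinase that starts autophagy, log2 fold change 0.51, limma adjusted p = 0.0156) and 2 fell, the outer membrane receptor Fundc1 (-0.61, limma adjusted p = 0.00754) and the adaptor Optn (-0.41, limma adjusted p = 0.0403), and the median of the list was -0.15. Of 17 genes of the mitochondrial stress response, 3 rose and 3 fell. Those that rose were the transcription factors Ddit3 (0.81) and Atf4 (0.55) and the matrix protease subunit Clpp (0.53). Those that fell were the inner membrane proteases Yme1l1 (-0.57) and Oma1 (-0.53) and the matrix chaperone Hspa9 (-0.48). Among all genes tested, 8.14% rose and 8.75% fell at an adjusted p under 0.05.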
